A study of Mus musculus with 17 samples.

Results

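Krüppel-like factors (KLFs) and the NR4A nuclear receptors were described here in the mouse uterus after estradiol. The 9 genes are Klf2, Klf4, Klf5, Klf6, Klf9, Klf15, Nr4a1, Nr4a2 and Nr4a3. They were chosen by name, as the probes that the platform annotation gives to these symbols, and each gene was read from its brightest probe. All 9 were measured, on 15 of the 34885 probes that carry 1 gene symbol, and all 9 were among the 14737 genes of 19057 that were bright enough to test. The study measured total uterine RNA on Illumina mouse bead arrays, in mice labelled wild type (WT) or Egr1 knockout (KO). Tissue came from 4 times, 0 h and 3, 6 and 24 h after treatment with estradiol, the main ovarian estrogen. There were 17 arrays in 8 groups, with 3 arrays for WT at 3 h and 2 arrays for every other group. The labels give no estradiol dose, age, vehicle or ovary status, do not describe the Egr1 allele, and do not say whether the arrays of a group came from separate mice, so the p-values measure the spread between arrays, which may be technical.

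KLFs bind GC-rich and CACCC DNA elements through zinc fingers at their C-terminal end, and different members raise or lower transcription. In the uterus, KLF9 is known as a partner of the progesterone receptor, and KLF4 and KLF5 are factors of epithelia. KLF2 is best known from the endothelium, where flowing blood induces it. The NR4A proteins are orphan nuclear receptors whose genes are transcribed within minutes of cAMP, growth factor or calcium signals and whose transcripts are short-lived.

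Values are log2 expression as deposited, and a difference of 1 is a doubling of the measured signal. Because a whole tissue was profiled, fewer cells of a type and less RNA per cell cannot be told apart. The arrays had been quantile normalised before deposit, so that each has the same median of 8.20 and 75th percentile of 8.87. Arrays of 1 group correlated at 0.990 to 0.997 over all probes. The Egr1 probe was not lower on the arrays labelled KO. It read 12.24 and 12.51 in WT and 13.48 and 13.63 in KO at 0 h, and it was higher in KO at 24 h by 1.65 ± 0.18 (SE, limma adjusted p = 1.47e-04). No source used here says whether this probe reads inside or outside the deleted part of the gene, so genotype differences are differences between labels. Epithelial, smooth muscle, stromal and endothelial marker lists were all present, with list means of 9.83 to 11.9 across arrays.

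The 9 genes fell into a bright and a dim class. The mean of Klf9 lay at percentile 97.4 of all probes, that of Klf6 at 97.1, Klf5 at 94.3, Klf2 at 92.0 and Klf4 at 91.9. Nr4a2 lay at percentile 63.0, Nr4a1 at 50.9, Nr4a3 at 47.7 and Klf15 at 47.6. Nr4a2 was above the array median on 16 of 17 arrays, Nr4a1 on 9, Nr4a3 on 6 and Klf15 on 5. A reading near the array median does not distinguish a low transcript level from none.

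**Figure D1:**
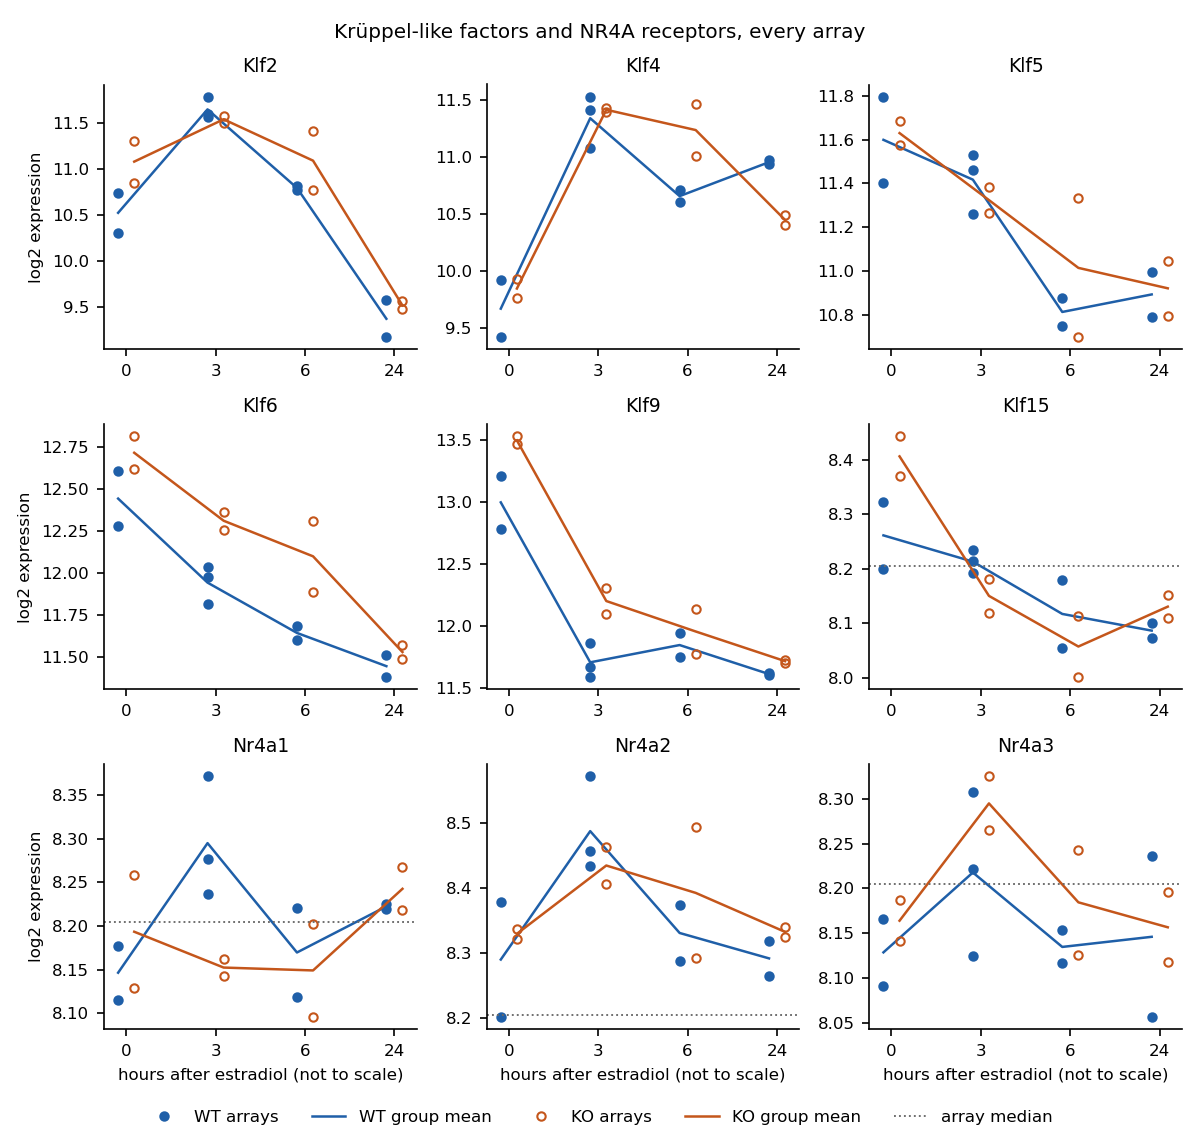
Log2 expression (vertical axes, a separate range for each gene) of the 9 genes on each array against hours after estradiol (horizontal axis, not to scale). Points are arrays, filled for WT and open for KO, lines join group means, and the dotted line in the 4 dim genes is the array median of 8.20. Klf2 and Klf4 peak at 3 h in WT, Klf9 drops from 0 to 3 h in both genotypes, and the NR4A genes stay between 8.06 and 8.57.

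Estradiol was followed by opposite changes within the family. Klf4 was higher than at 0 h at every later time in both genotypes, and Klf6 and Klf9 were lower at every later time in both. Klf2 was higher in WT at 3 h and lower in both genotypes at 24 h. Klf5 was lower at 6 and 24 h in both.

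These calls stand against a large response of the whole array. At 3 h, 3 of the 9 genes were called higher in WT, where 22.2% of all genes were, and 2 were called lower, where 24.5% were (limma, adjusted p under 0.05). At 6 h in WT, 1 was higher against 21.9% of all genes and 3 were lower against 22.1%. At 24 h in WT, 1 was higher against 18.9% and 5 were lower against 19.0%.

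In KO, 1 gene was higher at 3 h against 19.0% of all genes, and 3 were lower against 21.4%. At 6 h in KO, 1 was higher against 21.8% and 4 were lower against 23.0%. At 24 h in KO, 1 was higher against 22.5% and 5 were lower against 23.1%. The median change of the 9 genes was 0.09 at 3 h, 0.0061 at 6 h and -0.17 at 24 h in WT, and -0.041, -0.044 and -0.28 in KO. The median over all genes stayed between -0.0075 and 0.0026 in these 6 comparisons. Comparisons within a genotype share their 0 h arrays, so their calls are not independent of each other. Counts given below for gene lists in these comparisons are to be read against the same shares of all genes.

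**Figure D2:**
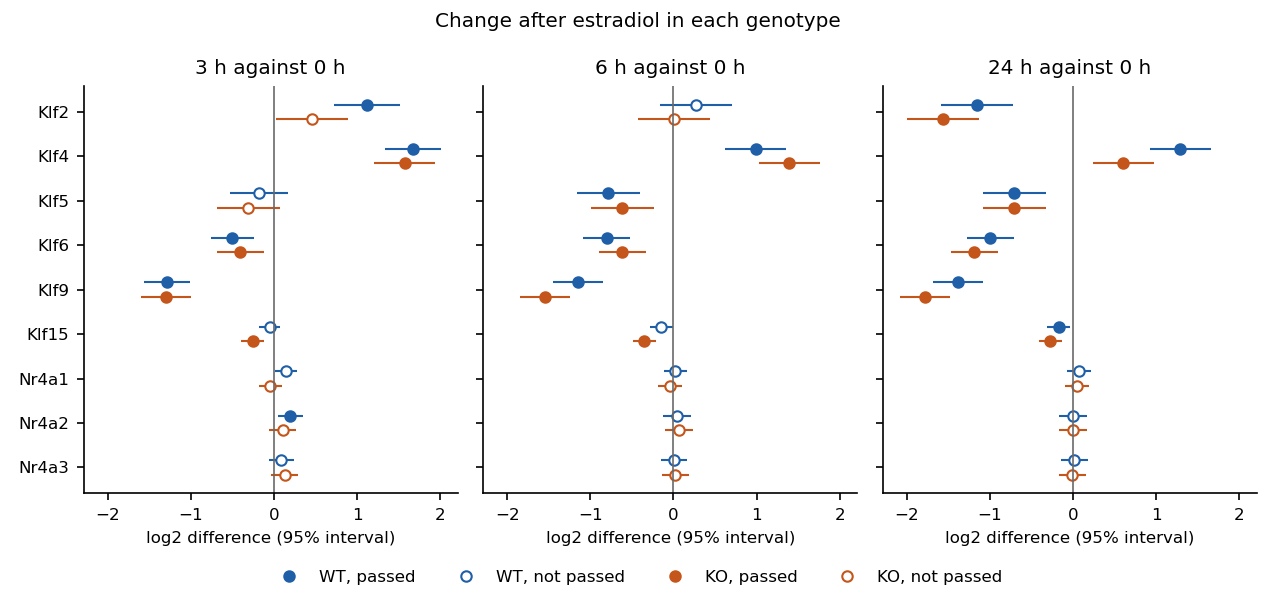
Log2 difference from 0 h (horizontal axes) of each gene at 3, 6 and 24 h, with WT in blue and KO in orange. Bars are 95% intervals from limma and filled points passed an adjusted p of 0.05. Klf4 lies right of 0 and Klf6 and Klf9 lie left of 0 in all 3 panels, and the NR4A points lie between -0.044 and 0.20.

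Klf4 encodes a factor that stops division and drives differentiation in several epithelia. Its probe (ILMN_2999439) read 9.92 and 9.42 in WT at 0 h, 11.41, 11.53 and 11.08 at 3 h, 10.61 and 10.71 at 6 h, and 10.98 and 10.94 at 24 h. In KO it read 9.76 and 9.93 at 0 h, 11.43 and 11.40 at 3 h, 11.01 and 11.47 at 6 h, and 10.49 and 10.40 at 24 h. Every array after estradiol was above every array at 0 h. The rise at 3 h was 1.67 ± 0.16 in WT (SE, 3.19-fold, limma adjusted p = 8.88e-07) and 1.57 ± 0.17 in KO (2.97-fold, limma adjusted p = 6.31e-06). At 6 h the rise was 0.99 ± 0.17 in WT (limma adjusted p = 2.73e-04) and 1.39 ± 0.17 in KO (limma adjusted p = 1.22e-05). At 24 h it was 1.29 ± 0.17 in WT (limma adjusted p = 6.00e-05) and 0.60 ± 0.17 in KO (limma adjusted p = 0.0095).

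Between neighbouring times the course of Klf4 was also uneven. In WT, Klf4 fell by 0.68 ± 0.16 from 3 to 6 h (limma adjusted p = 0.00511), a call lost without the first WT array at 6 h, at -0.63. In KO it fell by 0.79 ± 0.17 from 6 to 24 h (limma adjusted p = 0.00201). The call of the KO rise at 24 h rested on the first KO array at 0 h, without which the rise was 0.52, and on the first at 24 h, without which it was 0.56. Epithelial markers were not higher as a list at 3 h, when 4 of 13 were called higher and 6 lower in WT with a median difference of -0.077. At 24 h, 9 of 13 were higher in WT and 5 in KO, with list means of 10.55 to 10.56 on the WT arrays and 10.27 to 10.32 on the KO arrays. Their part in the Klf4 values at 24 h was not tested.

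Klf4 was read by 2 further probes, which were also higher than at 0 h at every later time in both genotypes. On ILMN_1241903 the WT differences from 0 h were 1.82 at 3 h, 1.27 at 6 h and 1.29 at 24 h, and the KO differences were 1.73, 1.71 and 0.75. On ILMN_1221264 they were 1.22, 0.86 and 0.77 in WT and 1.29, 1.31 and 0.52 in KO. All 3 probes were lower in KO than in WT at 24 h and higher at 6 h. With the brightest probe first, KO less WT was 0.58, 0.71 and 0.54 at 6 h and -0.51, -0.27 and -0.17 at 24 h. The later steps varied between probes: from 6 to 24 h in WT they read 0.30, 0.024 and -0.091, and from 3 to 6 h in KO -0.18, -0.019 and 0.024, with the brightest probe first.

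**Figure D3:**
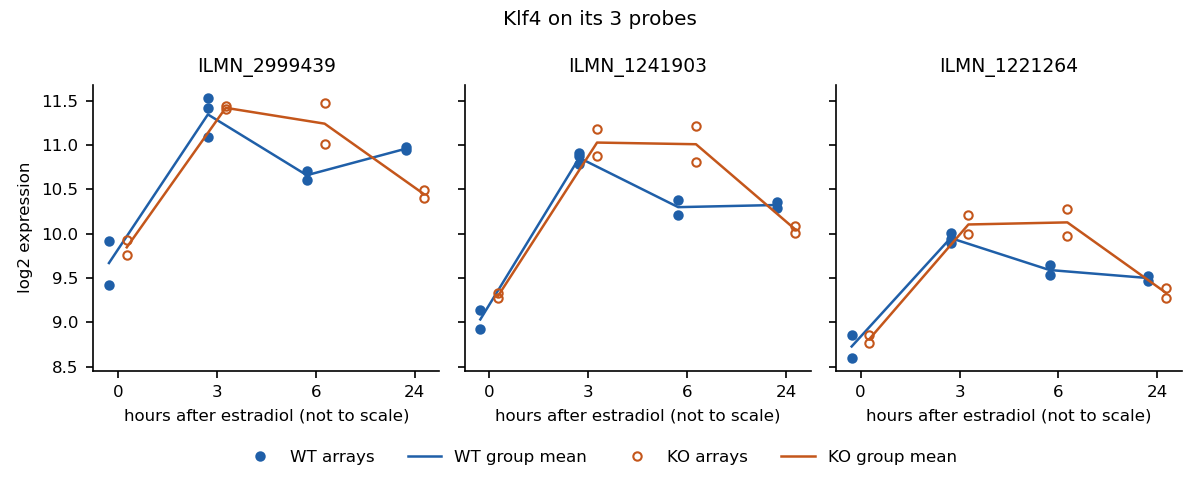
Log2 expression of Klf4 (shared vertical axis) on its 3 probes against hours after estradiol (horizontal axis, not to scale), with filled points for WT arrays, open points for KO arrays and lines through group means. On each probe all arrays after estradiol lie above those at 0 h, and the KO mean is above WT at 6 h and below it at 24 h.

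Klf2 encodes an endothelial factor that keeps vessels in a quiet, anticoagulant state. Its probe (ILMN_2604029) read 10.31 and 10.74 in WT at 0 h, 11.79, 11.57 and 11.60 at 3 h, 10.82 and 10.77 at 6 h, and 9.17 and 9.57 at 24 h. In KO it read 10.85 and 11.31 at 0 h, 11.51 and 11.58 at 3 h, 10.77 and 11.42 at 6 h, and 9.56 and 9.47 at 24 h. The WT arrays at 3 h were all above the WT arrays at 0 h, and the 24 h arrays of both genotypes lay below all others. In WT, Klf2 rose by 1.13 ± 0.18 at 3 h (SE, 2.18-fold, limma adjusted p = 1.55e-04). From 3 to 6 h it fell by 0.86 ± 0.18 (limma adjusted p = 0.00364).

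From 6 to 24 h, Klf2 fell by 1.42 ± 0.20 in WT (limma adjusted p = 7.33e-05) and by 1.58 ± 0.20 in KO (limma adjusted p = 3.17e-05). That left it below 0 h by 1.15 in WT (2.22-fold, limma adjusted p = 4.97e-04) and by 1.57 in KO (2.96-fold, limma adjusted p = 2.06e-05). In KO the difference at 3 h was 0.46 ± 0.20 and did not pass (limma adjusted p = 0.0878). It passed without the second KO array at 0 h, at 0.69, and without either KO array at 6 h, at 0.46. The interaction at 3 h (change in KO less change in WT) was -0.67 with a 95% interval of -1.25 to -0.077 and also did not pass (limma adjusted p = 0.297).

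Genes known as KLF2 targets in endothelium did not follow one direction. Of 8 measured, 4 were higher and 2 lower in WT at 3 h, and 1 was higher and 2 lower in KO, with list medians of 0.19 and 0.050. Nos3, which makes endothelial nitric oxide and is raised by KLF2, rose by 1.82 ± 0.08 in WT (limma adjusted p = 1.60e-09) and by 1.18 ± 0.09 in KO (limma adjusted p = 1.75e-07). The adhesion receptor gene Sele, which KLF2 is known to hold down, also rose in WT, by 0.92 ± 0.09 (limma adjusted p = 1.36e-06). Edn1, which encodes the vessel constrictor endothelin and is held down by KLF2, fell by 0.62 ± 0.12 in WT (limma adjusted p = 4.83e-04) and by 0.36 ± 0.13 in KO (limma adjusted p = 0.0341). The KO call of Edn1 at 3 h was lost without any 1 of the 4 KO arrays at 0 and 3 h, at -0.39 to -0.33. Tek and Vcam1, named here after their values were seen, also changed in WT at 3 h. Tek fell by 0.83 ± 0.10 in WT (limma adjusted p = 8.75e-06) and by 0.66 ± 0.11 in KO (limma adjusted p = 2.11e-04). Vcam1 rose by 0.66 ± 0.23 in WT (limma adjusted p = 0.0302) and did not pass in KO, at -0.26 (limma adjusted p = 0.48). In KO the difference of Sele at 3 h was 0.11 ± 0.10 and did not pass (limma adjusted p = 0.451). The 3 h changes of Nos3 and Sele were smaller in KO than in WT, with interactions of -0.63 ± 0.12 (limma adjusted p = 0.0236) and -0.81 ± 0.13 (limma adjusted p = 0.0135). Both calls were lost without the second KO array at 0 h, and that of Nos3 also without any 1 of 3 others, the second KO array at 3 h and the first WT arrays at 0 and 3 h. At 24 h, when Klf2 was lowest, Edn1 was still lower by 0.87 in WT and 0.98 in KO. The list then had 2 calls in WT and 4 in KO, all lower, and the 4 became 2 without the second KO array at 0 h.

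Endothelial markers moved only in part with Klf2. Of 12, 3 were higher and 6 lower in WT at 3 h, with a median of -0.19, while Klf2 was higher. At 24 h, 8 were lower in each genotype, with medians of -0.50 in WT and -0.40 in KO, and all 12 were above the array median in every group. The list mean was 10.59 to 10.74 in WT at 0 h and 10.06 to 10.13 at 24 h. The part of these markers in the 24 h values of Klf2 was not tested.

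The promoters of the 4 bright genes with calls that were found, Klf2, Klf4, Klf6 and Klf9, are shown to compare the letters near their starts, beside that of Nr4a3, a gene with no call and several matches to the motif in capitals. They are RefSeq sequences of build GRCm38.p6, from 250 bases before to 50 bases after the start, and were found for 8 of the 9 genes. Capitals mark the core of the cAMP response element, TGACG or its reverse complement CGTCA.
Klf2, chr8:72318812-72319111, strand plus: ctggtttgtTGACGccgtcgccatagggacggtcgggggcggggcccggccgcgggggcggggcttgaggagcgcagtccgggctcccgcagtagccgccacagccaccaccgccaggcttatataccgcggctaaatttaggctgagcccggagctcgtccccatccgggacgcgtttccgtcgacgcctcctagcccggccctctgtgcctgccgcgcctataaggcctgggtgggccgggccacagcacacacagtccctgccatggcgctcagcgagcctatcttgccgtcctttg
Klf4, chr4:55532426-55532725, strand minus: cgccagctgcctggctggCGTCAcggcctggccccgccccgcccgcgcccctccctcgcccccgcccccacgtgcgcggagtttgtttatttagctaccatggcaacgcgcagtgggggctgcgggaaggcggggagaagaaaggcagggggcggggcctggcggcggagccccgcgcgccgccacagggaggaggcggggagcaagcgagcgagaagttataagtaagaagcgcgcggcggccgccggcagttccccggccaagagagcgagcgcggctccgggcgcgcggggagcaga
Klf6, chr13:5861239-5861538, strand plus: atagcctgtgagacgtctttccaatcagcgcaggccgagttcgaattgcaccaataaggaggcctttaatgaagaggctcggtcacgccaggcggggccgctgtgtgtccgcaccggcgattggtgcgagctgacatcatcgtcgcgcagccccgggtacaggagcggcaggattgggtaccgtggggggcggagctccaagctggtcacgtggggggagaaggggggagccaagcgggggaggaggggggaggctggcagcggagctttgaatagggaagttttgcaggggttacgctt
Klf9, chr19:23140976-23141275, strand plus: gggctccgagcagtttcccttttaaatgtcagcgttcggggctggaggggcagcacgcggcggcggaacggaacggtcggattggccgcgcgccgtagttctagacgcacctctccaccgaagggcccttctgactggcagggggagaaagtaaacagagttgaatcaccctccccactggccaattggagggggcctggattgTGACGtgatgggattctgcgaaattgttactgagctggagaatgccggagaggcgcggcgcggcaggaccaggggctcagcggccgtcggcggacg
Nr4a3, chr4:48045055-48045354, strand plus: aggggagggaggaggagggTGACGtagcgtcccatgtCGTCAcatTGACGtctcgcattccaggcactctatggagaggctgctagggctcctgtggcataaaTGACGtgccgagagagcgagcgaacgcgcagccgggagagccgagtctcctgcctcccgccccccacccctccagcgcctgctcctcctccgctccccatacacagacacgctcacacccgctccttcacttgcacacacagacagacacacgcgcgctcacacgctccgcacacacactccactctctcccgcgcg

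The core TGACG, searched on both strands, was found in 7 of the 8 promoters against 20.8% of 32851 promoters of this length. Nr4a1, Nr4a2 and Nr4a3 each held 4 matches, Klf15 held 2, Klf2, Klf4 and Klf9 held 1 each, and Klf6 held 0. The letters GGGCGG, a GC box, were found in 7 of 8 against 35.7%, and GCGNGGGCG, the EGR site, in 5 of 8 against 5.55%, with 2 matches in Klf4. The estrogen half-site GGTCA was found in 2 of 8, Klf6 and Nr4a2, against 40.5%. CACGTG, an E-box, was found in 3 of 8 against 7.15%, and TATAAA in 1 against 13.6%. Motifs were searched separately, so matches of different motifs may overlap, and the 8 promoters held 63.0% to 81.7% G or C against a median of 52.7% over all promoters. A match is a match of letters and no binding was measured.

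Klf9 had the highest percentile of the 9 genes and one of the deepest falls. It encodes a factor that glucocorticoid and thyroid hormone are known to induce. Its probe (ILMN_1254031) read 12.78 and 13.21 in WT at 0 h, 11.67, 11.86 and 11.58 at 3 h, 11.94 and 11.75 at 6 h, and 11.60 and 11.62 at 24 h. In KO it read 13.47 and 13.53 at 0 h, 12.10 and 12.30 at 3 h, 11.77 and 12.14 at 6 h, and 11.70 and 11.73 at 24 h. All 13 arrays taken after estradiol lay below all 4 arrays at 0 h. In WT, Klf9 fell by 1.29 ± 0.13 at 3 h (SE, limma adjusted p = 1.67e-06), by 1.15 ± 0.14 at 6 h (limma adjusted p = 1.41e-05) and by 1.39 ± 0.14 at 24 h (limma adjusted p = 8.69e-06). In KO it fell by 1.30 ± 0.14 at 3 h (limma adjusted p = 6.37e-06), by 1.54 ± 0.14 at 6 h (limma adjusted p = 9.63e-07) and by 1.78 ± 0.14 at 24 h (3.44-fold, limma adjusted p = 5.76e-07). Most of the fall was present by 3 h, and no later step between neighbouring times passed for Klf9 in either genotype, with 1 exception when an array was left out. Without the first KO array at 6 h, the fall from 6 to 24 h in KO was 0.42 and passed.

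Klf6 encodes a factor of wide expression, induced by injury in other tissues. Its probe (ILMN_2731949) read 12.28 and 12.61 in WT at 0 h, 11.98, 11.81 and 12.04 at 3 h, 11.60 and 11.68 at 6 h, and 11.38 and 11.51 at 24 h. In KO it read 12.81 and 12.62 at 0 h, 12.26 and 12.37 at 3 h, 11.89 and 12.31 at 6 h, and 11.49 and 11.57 at 24 h. The group means of WT stepped down at each time without overlap of neighbouring times. In WT, Klf6 fell by 0.50 ± 0.12 at 3 h (SE, limma adjusted p = 0.00321), by 0.80 ± 0.13 at 6 h (limma adjusted p = 1.85e-04) and by 1.00 ± 0.13 at 24 h (limma adjusted p = 5.89e-05). In KO it fell by 0.40 ± 0.13 at 3 h (limma adjusted p = 0.0238), by 0.62 ± 0.13 at 6 h (limma adjusted p = 0.00136) and by 1.19 ± 0.13 at 24 h (limma adjusted p = 5.86e-06).

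The early falls of Klf6 rested on few arrays. In WT at 3 h, leaving out the second array of 0 h ended the call, at -0.34. The KO call at 3 h was lost without the first KO array at 0 h, at -0.31, or the first at 3 h, at -0.35. The KO fall at 6 h kept its call and became 0.41 without the first KO array at 6 h, and the fall from 6 to 24 h in KO, 0.57 ± 0.13 (limma adjusted p = 0.00326), was lost without the second, at -0.36. A second, dimmer Klf6 probe, at percentile 66.5, differed from 0 h by -0.13, -0.23 and -0.22 in WT and by -0.16, -0.13 and -0.33 in KO, all in the same direction.

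Klf5 encodes a factor of dividing epithelial cells and smooth muscle, and it was called lower from 6 h on. Its probe (ILMN_1253387) read 11.40 and 11.80 in WT at 0 h, 11.26, 11.53 and 11.46 at 3 h, 10.88 and 10.75 at 6 h, and 10.79 and 10.995 at 24 h. In KO it read 11.68 and 11.58 at 0 h, 11.38 and 11.26 at 3 h, 10.70 and 11.33 at 6 h, and 11.05 and 10.80 at 24 h. The WT arrays at 0 and 3 h overlapped, and those at 6 and 24 h lay below both. The differences at 3 h were -0.18 in WT (limma adjusted p = 0.396) and -0.31 in KO (limma adjusted p = 0.199). At 6 h, Klf5 was lower by 0.79 ± 0.18 in WT (limma adjusted p = 0.00211) and by 0.62 ± 0.18 in KO (limma adjusted p = 0.0102). At 24 h it was lower by 0.71 ± 0.18 in WT (limma adjusted p = 0.00569) and in KO (limma adjusted p = 0.00406).

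Several of the Klf5 calls depended on 1 array. In WT at 24 h, leaving out the second array of 0 h (-0.51) or the first of 24 h (-0.60) ended the call, and the KO call without the second KO array at 24 h, at -0.58. At 6 h the KO call was lost without the first KO array at 0 h, at -0.56, or the first at 6 h, at -0.30, and its fall became 0.93 without the second. The fall from 3 to 6 h in WT, 0.60 ± 0.16 (limma adjusted p = 0.013), was lost without either WT array at 6 h, at -0.67 and -0.54. The second Klf5 probe lay at percentile 9.56 and below the array median on all 17 arrays. Epithelial markers, as given above for Klf4, were higher as a list at 24 h in WT, and their part in the Klf5 values was not tested.

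Klf15 encodes a factor that glucocorticoid induces and that raises amino acid breakdown in muscle and liver. Its probe (ILMN_1235255) stayed between 8.002 and 8.44 on all arrays. It read 8.20 and 8.32 in WT and 8.44 and 8.37 in KO at 0 h, against 8.12 and 8.18 in KO at 3 h, 8.11 and 8.002 at 6 h, and 8.11 and 8.15 at 24 h. The KO arrays at 0 h were the 2 highest of the 17, and no later KO array reached them. In KO, Klf15 was lower by 0.26 ± 0.06 at 3 h (SE, limma adjusted p = 0.00506), by 0.35 ± 0.06 at 6 h (limma adjusted p = 4.14e-04) and by 0.28 ± 0.06 at 24 h (limma adjusted p = 0.00256). The KO call at 3 h was lost without the first KO array at 0 h, at -0.22. In WT the arrays were 8.21, 8.23 and 8.19 at 3 h, 8.18 and 8.06 at 6 h, and 8.07 and 8.10 at 24 h, and only the 24 h difference of -0.17 ± 0.06 passed (limma adjusted p = 0.0453). The 24 h call was lost when any of 10 of the 17 arrays was left out, with values from -0.19 to -0.11 where it was lost. The WT difference at 6 h passed without the first WT array at 0 h, at -0.21.

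Genes on the list for KLF15, of amino acid breakdown and of glucose use, were mostly lower as well, beside a factor gene that itself read near the array median. Of 10 measured, 8 were lower and 1 higher in WT at 3 h, with a median of -0.58, and 7 were lower in KO, with a median of -0.57. Without the first KO array at 3 h, 4 were lower in KO. Cdo1, which oxidises cysteine, fell by 1.92 ± 0.50 in WT (limma adjusted p = 0.0053) and fell by 2.16 ± 0.54 in KO (limma adjusted p = 0.00517), and the KO call was lost without the same array, at -1.35. Bckdhb, of the enzyme that breaks down branched-chain keto acids, fell by 0.90 ± 0.08 in WT (limma adjusted p = 5.11e-07) and by 0.78 ± 0.09 in KO (limma adjusted p = 6.85e-06). Pdk4, a kinase that slows glucose oxidation, went the other way in WT, with a rise of 1.93 ± 0.18 (limma adjusted p = 8.93e-07).

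Glucocorticoid-induced genes, among which Klf9 and Klf15 are often counted although neither was on the list, went both ways before 24 h. Of 18, 7 were higher and 5 lower in WT at 3 h, with a median of 0.13, and the counts were the same at 6 h, with a median of 0.19, although Klf9 was lower at both times. The 5 lower became 3 without the second WT array at 0 h, and at 6 h also without the second WT array at 6 h. In KO, 4 were higher and 6 lower at 3 h and 3 were higher and 11 lower at 6 h, with medians of -0.031 and -0.42. At 24 h, 10 were lower and 1 higher in WT, with a median of -0.48, and 15 were lower and 1 higher in KO, with a median of -0.90. Tsc22d3, which encodes the anti-inflammatory protein GILZ, fell by 1.51 ± 0.24 in WT (limma adjusted p = 2.33e-04) and by 2.63 ± 0.24 in KO (limma adjusted p = 1.33e-06). At 0 h, 7 of the 18 passed in KO against WT, all higher, with a list median of 0.44 over the whole list. Of all genes, 4.43% passed in this comparison in either direction. Leaving out single arrays gave 0 to 9 calls, with 0 without the second KO array or the first WT array at 0 h. Fkbp5, a chaperone partner of steroid receptors, was higher by 0.67 ± 0.14 (limma adjusted p = 0.0129), with 0.59 and 0.66 and no call without those arrays.

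Most markers of fat cells fell at the same times as the KLF genes that fell. Of 8 adipocyte markers, 7 were lower in WT at 3 h, 6 at 6 h and 7 at 24 h, and 7 were lower in KO at 3 h and 8 at both 6 and 24 h. The eighth at 3 h, Pparg, a nuclear receptor gene of fat cells named here after its values were seen, was higher by 0.88 ± 0.15 in WT (limma adjusted p = 2.46e-04) and by 0.48 ± 0.17 in KO (limma adjusted p = 0.0329). The KO call of Pparg was lost without the first KO array at 0 h or either KO array at 3 h. The WT counts of lower markers at 3 and 24 h became 1 and 3 without the second WT array at 0 h. The adipocyte list mean was 10.20 and 10.73 on the WT arrays at 0 h and 11.12 and 11.25 on the KO arrays, against 8.69 to 9.69 on later WT arrays. The second KO arrays at 3 and 6 h stood apart, at 10.03 each against 9.02 and 8.75 on the first, and at 6 h the second KO array was also the higher for 5 of the 6 KLF genes, by up to 0.65. By group means, 0 of the 8 lay below the array median in KO at 0 h and up to 3 in the other groups, and the part of this list in the falls of Klf5, Klf6, Klf9 and Klf15 was not tested.

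Stromal markers were lower at 3 and 6 h, as Klf6 and Klf9 were. All 10 were called lower in WT at 3 h, with a median of -1.02, and 8 at 6 h, with a median of -1.09, while 6 were lower in KO at each of these times. At 24 h in WT, 3 were lower and 2 higher, with a median of 0.047, when Klf9 was lower by 1.39. The 3 lower became 1 without the second WT array at 0 h, and both calls of higher markers were lost without that array or either WT array at 24 h. The stromal list mean was 11.35 to 11.89 in WT at 0 h, 10.46 to 10.71 at 3 h and 11.74 to 11.76 at 24 h, and its part in the falls of Klf6 and Klf9 was not tested. Of 11 macrophage markers, 9 were lower in KO at 24 h, and 5 without the second KO array at 0 h, on which the list mean was 10.52 against 9.80 on the first. In WT at 24 h the median of the list was 0.015.

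The 3 NR4A genes showed little change at the sampled times. Nr4a1 (ILMN_2701881) read 8.18 and 8.12 in WT at 0 h and 8.37, 8.24 and 8.28 at 3 h, and 8.26 and 8.13 in KO at 0 h and 8.14 and 8.16 at 3 h. Nr4a2 (ILMN_1254547) read 8.20 and 8.38 in WT at 0 h and 8.57, 8.46 and 8.43 at 3 h, and 8.34 and 8.32 in KO at 0 h and 8.41 and 8.46 at 3 h. Nr4a3 (ILMN_1257794) read 8.09 and 8.17 in WT at 0 h and 8.31, 8.12 and 8.22 at 3 h, and 8.19 and 8.14 in KO at 0 h and 8.33 and 8.26 at 3 h. The WT arrays at 3 h lay above those at 0 h for Nr4a1 and Nr4a2, and overlapped them for Nr4a3.

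The only NR4A call was Nr4a2 in WT at 3 h, a difference of 0.20 ± 0.07 (SE, limma adjusted p = 0.0331). It was lost without the first WT array at 0 h, at 0.11, or the first at 3 h, at 0.16. The difference of Nr4a1 in WT at 3 h was 0.15 with a 95% interval of 0.018 to 0.28 (limma adjusted p = 0.0593), and it passed without the second WT array at 3 h, at 0.18. In KO the 3 h differences were -0.041 for Nr4a1, 0.10 for Nr4a2 and 0.13 for Nr4a3, and their intervals reached from -0.18 at the lowest to 0.29 at the highest. At 6 and 24 h the intervals of the 3 genes in both genotypes lay between -0.19 and 0.23. The other probes of Nr4a3 lay below the array median on all 17 arrays.

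Many genes that respond to the same kinds of signal as the NR4A genes did change. Of 18 serum-response immediate-early genes, 17 were higher and 1 lower in WT at 3 h, with a median of 1.32, and 14 were higher and 1 lower in KO, with a median of 0.97. Fos, a subunit of the AP-1 factor, rose by 3.49 ± 0.19 in WT (SE, limma adjusted p = 8.99e-09) and by 3.19 ± 0.21 in KO (limma adjusted p = 7.95e-08). Of 19 genes tied to cAMP and CREB, 12 were higher and 3 lower in WT, with a median of 0.41, and 11 were higher and 4 lower in KO, with a median of 0.35. Cebpb, a bZIP factor, rose by 2.22 ± 0.10 in WT (limma adjusted p = 2.28e-09), and Ppargc1a, a coactivator of mitochondrial genes, fell by 1.30 ± 0.12 (limma adjusted p = 6.05e-07). These lists share Fos, Dusp1 and others. Among 4 partners of NR4A proteins and related receptors, 1 was called in WT at 3 h, namely Rxrb, a retinoid X receptor, lower by 0.32 ± 0.08 (limma adjusted p = 0.00598) and by 0.28, with no call, without the second WT array at 0 h.

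The order of the 8 groups differed from gene to gene. For Klf4 the order was KO 3 h, WT 3 h, KO 6 h, WT 24 h, WT 6 h, KO 24 h, KO 0 h and WT 0 h, and the arrays of neighbours overlapped among the first 3 and between the last pair. For Klf2 it ran from WT 3 h and KO 3 h, which overlapped, through KO 6 h and KO 0 h, which overlapped, WT 6 h and WT 0 h to KO 24 h and WT 24 h, which overlapped. For Klf9 both 0 h groups led without overlap, KO above WT, and KO 3 h came next. For Klf5 all neighbours in the order overlapped, from KO 0 h at the top to WT 6 h at the bottom. For Klf6 the order began with KO 0 h, WT 0 h, KO 3 h and KO 6 h and ended with WT 24 h.

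Each bright gene had close companions in pattern. Over the 8 group means, the 3 genes most like Klf2 among 2668 candidates were Dusp1, a phosphatase of MAP kinases (Pearson r = 0.986), Pim3, a kinase (r = 0.979), and Jun, of AP-1 (r = 0.977). For Klf4 they were Ier3 (r = 0.981), Padi1, which converts arginine to citrulline in proteins (r = 0.981), and Tpbgl (r = 0.969). For Klf9 they were 1700029J07Rik (r = 0.985), Acbd4 (r = 0.985) and C1qtnf9 (r = 0.980).

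For Klf5 the nearest genes were Abi3bp, Cadm1 and Abca8a (r = 0.983 to 0.970), for Klf6 Cox8b, Retnla and Aqp1 (r = 0.986 to 0.974), and for Klf15 Amigo1, Chst1 and Gstm1 (r = 0.954 to 0.946). For Nr4a2 they were Slc6a12, Chac1 and Rbpms (r = 0.966 to 0.948) and for Nr4a3 Hspa12b, Cyp2s1 and Otub2 (r = 0.943 to 0.937). The nearest to Nr4a1 was Stc2, a secreted glycoprotein gene, at only r = 0.612. The means of all genes come from the same 17 arrays, and with 8 points these values are descriptions.

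Before estradiol, Klf9 and Klf2 had the larger differences between the genotype labels. At 0 h, 0 of the 9 passed in KO against WT, where 4.43% of all genes did, and 3 had an unadjusted p under 0.05, where 18.4% of all genes did (limma). With 9 genes, counts at such shares say little about these genes as a set. Klf9 was higher in KO by 0.50 ± 0.14 (SE, limma adjusted p = 0.0626), and its arrays did not overlap. It passed without the second WT array at 0 h, at 0.71, or without either KO array at 6 h, at 0.50. Klf2 was higher by 0.56 ± 0.20 (limma adjusted p = 0.147) and passed without the second WT array at 0 h, at 0.77.

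At 3 h, 1 of the 9 passed, where 4.23% of all genes did. Klf9 was higher in KO by 0.49 ± 0.13 (limma adjusted p = 0.0472), and the call was lost when any of 11 of the 17 arrays was left out. Leaving out the second KO array at 3 h gave 0.39, the first WT array 0.48 and the third 0.43, and leaving out any of the other 8 left the difference at 0.49. Klf6 was higher by 0.37 ± 0.12 and did not pass (limma adjusted p = 0.104), except without either KO array at 6 h, at 0.37.

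At 6 h, 0 passed where 0.631% of all genes did, with 2 at an unadjusted p under 0.05, where 11.8% of all genes were (limma). Klf4 was higher in KO by 0.58 ± 0.17 (limma adjusted p = 0.158) and Klf6 by 0.46 ± 0.13 (limma adjusted p = 0.152), and both passed without the first KO array at 6 h, at 0.81 and 0.67. At 24 h, 0 passed where 8.35% of all genes did, with 1 at an unadjusted p under 0.05, where 21.1% of all genes were (limma). That was Klf4, lower in KO by 0.51 ± 0.17 (limma adjusted p = 0.0885), with WT arrays at 10.98 and 10.94 and KO arrays at 10.49 and 10.40. It passed without either WT array at 0 h, at -0.51. The dimmer Klf4 probes read smaller differences at 24 h, of -0.27 and -0.17.

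**Figure D4:**
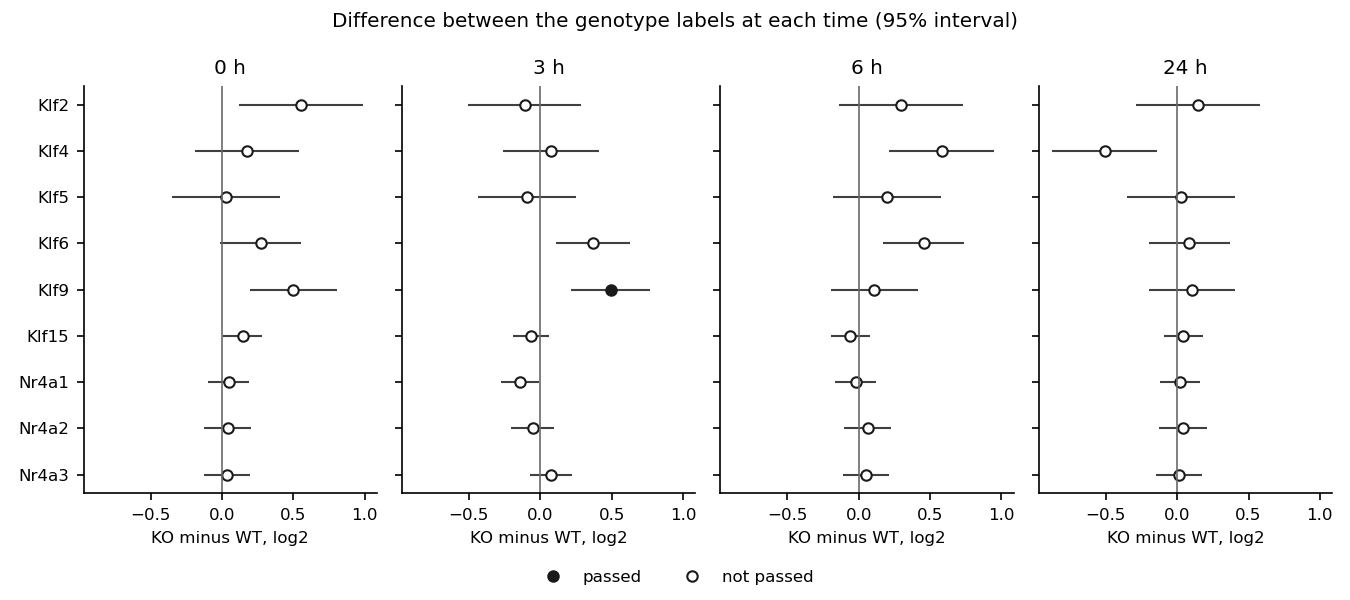
Log2 difference of KO minus WT (horizontal axes) of each gene at 0, 3, 6 and 24 h, with 95% intervals from limma. The filled point passed an adjusted p of 0.05 and open points did not. Klf9 at 3 h is the filled point at 0.49, and Klf4 lies right of 0 at 6 h and left of 0 at 24 h.

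The changes after estradiol were also compared between the labels directly. No gene of the 9 passed an interaction at 3 h, where 1.09% of all genes did, at 6 h (0.400%), at 24 h (7.27%) or in the joint test over the 3 times (6.83%), and 2, 1, 1 and 1 had an unadjusted p under 0.05, where 13.7%, 11.1%, 22.5% and 23.9% of all genes did (limma). Klf4 came nearest, with a joint F of 6.95 (limma adjusted p = 0.0586). Its interaction at 24 h was -0.69 with a 95% interval of -1.20 to -0.17 (limma adjusted p = 0.104) and became -0.94 and passed without the first WT array at 0 h. The joint test of Klf4 passed without either WT array at 0 h, without the third at 3 h or without the first KO array at 6 h, with F from 8.73 to 10.8. The interaction of Klf9 at 24 h was -0.40 (limma adjusted p = 0.265) and passed without the second WT array at 0 h, at -0.61.

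Steps between neighbouring times gave few further calls. In WT, 3 of the 9 passed from 3 to 6 h, where 26.0% of all genes did, and these were the falls of Klf2, Klf4 and Klf5 given above. Klf6 differed by -0.30 (limma adjusted p = 0.0858) and passed without either KO array at 6 h. From 6 to 24 h in WT, Klf2 alone passed, where 38.3% of all genes did. In KO, 0 passed from 3 to 6 h, where 23.3% of all genes did and 1 of the 9 had an unadjusted p under 0.05, where 34.3% of all genes did (limma). Without the second KO array at 6 h, 3 passed, with Klf2 at -0.77, Klf5 at -0.63 and Klf6 at -0.42. From 6 to 24 h in KO, 3 passed, the falls of Klf2, Klf4 and Klf6, where 38.3% of all genes did.

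The rest of the KLF and SP family, which share the zinc-finger fold, was counted against the shares of all genes given above, 22.2% higher and 24.5% lower in WT at 3 h and 19.0% and 21.4% in KO. Of 7 other KLF genes measured, 1 was higher and 1 lower at 3 h in each genotype. A second was lower in WT without either KO array at 6 h or the first WT array at 0 h, and a second higher in KO without either KO array at 6 h or the first KO array at 0 h. Klf7 fell by 0.62 ± 0.09 in WT (SE, limma adjusted p = 3.29e-05) and by 0.64 ± 0.09 in KO (limma adjusted p = 8.42e-05). Klf16 rose by 0.35 ± 0.05 in WT (limma adjusted p = 5.10e-05) and by 0.33 ± 0.05 in KO (limma adjusted p = 2.18e-04). Against WT at 3 h, Klf13 was higher in KO by 0.56 ± 0.09 (limma adjusted p = 0.00317). Klf3, named here after its values were seen, was also higher in KO, by 0.39 ± 0.09 at 3 h (limma adjusted p = 0.0241). At 6 h Klf3 was higher by 0.51 ± 0.10 (limma adjusted p = 0.0308). Of all genes, 4.23% passed in KO against WT at 3 h and 0.631% at 6 h. Of 6 SP genes, 1 was called in WT at 3 h, Sp7, higher by 0.30 ± 0.08 (limma adjusted p = 0.00666), a call lost without the first WT array at 0 h. In KO, Sp7 was higher by 0.60 ± 0.09 (limma adjusted p = 9.39e-05) and Sp4 lower by 0.23 ± 0.07 (limma adjusted p = 0.0169), the latter lost without the first KO array at 0 or 3 h. Both were named after their values were seen. Sp5, a target of Wnt signalling, was lower in KO by 1.38 ± 0.15 at 0 h (limma adjusted p = 4.45e-04) and by 1.26 ± 0.14 at 3 h (limma adjusted p = 7.30e-04).

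Partners of the KLFs were mixed. The shares of all genes called higher and lower were 22.2% and 24.5% in WT at 3 h. They were 22.5% and 23.1% in KO at 24 h, and 18.9% and 19.0% in WT at 24 h. Of 7 corepressor and turnover genes, 3 were called in WT at 3 h, all lower, led by Sin3a, a scaffold of histone deacetylases, at -0.68 ± 0.09 (limma adjusted p = 1.57e-05). In KO at 24 h, 2 were higher and 1 lower, with Sin3b at -0.94 ± 0.08 (limma adjusted p = 9.92e-07) and Wwp1, a ubiquitin ligase that marks KLF proteins for breakdown, at 0.63 ± 0.10 (limma adjusted p = 1.18e-04), and the 2 higher became 1 without the second KO array at 0 h. On the list around KLF9 and the progesterone receptor, 2 of 7 were higher and 4 lower in WT at 3 h, which became 1 and 2 without the first WT array at 0 h, and 1 higher without the first WT array at 3 h. Pgr, the progesterone receptor gene, rose by 1.21 ± 0.13 (limma adjusted p = 2.76e-06), and Nr2f2, a stromal nuclear receptor gene, fell by 1.22 ± 0.09 (limma adjusted p = 7.76e-08). At 24 h in KO, 3 of the 7 were higher, with Pgr at 0.88 ± 0.14 (limma adjusted p = 1.22e-04) and Esr1, the estrogen receptor gene, at 0.76 ± 0.17 (limma adjusted p = 0.00234), while Klf9 was lower by 1.78. In WT at 24 h the 2 calls on this list were both lower, Nr2f2 at -0.72 ± 0.09 (limma adjusted p = 5.66e-05) and Ihh, an epithelial hedgehog ligand gene named here after its values were seen, at -0.82 ± 0.11 (limma adjusted p = 4.97e-05). Pgr was then at 0.088 (limma adjusted p = 0.698) and Esr1 at -0.0080 (limma adjusted p = 0.983), with Klf9 lower by 1.39.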

How the data were processed

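Total uterine RNA was hybridised to Illumina mouse bead arrays, and BeadStudio is named without a version per the submitters' processing notes. The deposited values are log2 expression, and the sorted values of all 17 arrays were identical, which shows quantile normalisation by the authors. Background correction, offset and detection calls: not given in the sources used here; non-normalised values were not used here. The number of arrays limits the precision.

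Probes were named from the platform annotation: of 45281 probes, 34885 had 1 symbol, 18 several, and 10378 were not listed there and stay unnamed. The brightest probe per gene was kept if above the array median on at least 2 arrays, which left 14737 genes. limma 3.58.1 in R 4.3.3 fitted 8 group means over all 17 arrays (9 residual and 4.56 prior degrees of freedom), with Benjamini-Hochberg adjustment over all genes, a threshold of 0.05, two-sided. The procedure was tested on simulated data. The genes described and all lists were chosen with earlier results of these data known. From a list, only genes among the 4 largest changes of a comparison could be named, and all 9 genes were described; the 3 most similar genes had group means spanning at least 1 log2. Alternatives changed the filter, probe choice, centring, weights, trend, blocks and arrays used. Deviations of same-numbered arrays correlated at -0.19 to 0.31, with 11 of 56 pairs over 0.1.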

Additional observations from a re-analysis of the deposited data

Results flagged for a closer look

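Changes after estradiol were compared between the genotype labels by the test of the difference itself (interaction, change in KO less change in WT, limma adjusted p under 0.05). Of those that passed for genes named above, 9 are followed here with each array left out in turn. None of the 9 Krüppel-like factor and NR4A genes was among them. Of all genes, 1.09% passed the interaction at 3 h, 0.400% at 6 h and 7.27% at 24 h. At 3 h the interaction was -0.63 for Nos3 and -0.81 for Sele. The Nos3 call was lost without 4 of the 17 arrays in turn, at -0.72 to -0.54 over all omissions, and that of Sele without 1, the second KO array at 0 h. Also at 3 h it was -1.33 for Egr1, lost without 5 arrays in turn, -1.56 for Pdk4, lost without 2, and 0.84 for Nr2f2, lost without the second KO array at 0 h. At 6 h it was -1.08 for Fkbp5, lost without 6 arrays in turn and as low in size as -0.80. At 24 h it was 1.09 for Nr2f2, which passed without each array in turn, the smallest value being 0.99. At the same time it was 0.79 for Pgr, lost without 6 arrays in turn with a range of 0.49 to 1.09, and 0.82 for Sp5, lost without 12. Ihh also passed at 24 h, at 0.56 (limma adjusted p = 0.0381). It is not counted in the 9, and its values with arrays left out are not given here. An interaction also holds any difference between the labels at 0 h. In KO against WT, Sp5 differed by -1.38 at 0 h and -0.56 at 24 h. Ihh differed by -0.49 at 0 h, and by 0.073 with no call at 24 h (limma adjusted p = 0.803). Egr1 differed by 1.18 at 0 h, and by -0.15 with no call at 3 h (limma adjusted p = 0.695).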

How the results depend on the processing

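With the replicate number as a block, 1 of the 9 genes passed in KO against WT at 0 h and 0 at 3 h, against 0 and 1 without the block, and 0 passed at 3 h with the letters of the sample titles as the block. Deviations of same-numbered arrays correlated at -0.19 to 0.31, with 11 of 56 pairs over 0.1. Whether same-numbered arrays share an effect was not tested, so the call lost with a block stays uncertain. At 3 h the count of KO against WT was also 0 without a filter on dim probes, with the mean of all probes and with array weights. Array weights gave 5 genes for WT 6 h against 3 h (3 otherwise), 3 for WT 24 h against 6 h (1 otherwise), and 1 each for KO against WT at 24 h, the interaction at 24 h and the joint interaction (0 otherwise). The joint count was also 1 with the 75th percentile filter and with the mean of all probes. Fits of only the groups compared gave 4 for WT 24 h against 6 h and 1 for KO against WT at 24 h. The cause of these shifts was not tested. Median centring could change no call, because every array already had the same median of 8.20, so it says nothing about robustness.

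Leaving out each array in turn gave 4 to 6 called genes for WT at 3 h, 4 to 5 at 6 h and 4 to 6 at 24 h. It gave 2 to 5 for KO at 3 h, 4 to 5 at 6 h and 5 to 6 at 24 h. For the steps it gave 1 to 4 for WT 6 h against 3 h, 1 throughout for WT 24 h against 6 h (1 to 1), 0 to 3 for KO 6 h against 3 h and 2 to 4 for KO 24 h against 6 h. For KO against WT it gave 0 to 2 at 0, 3 and 6 h and 0 to 1 at 24 h. The interactions gave 0 to 0 at 3 and 6 h, 0 to 1 at 24 h and 0 to 1 jointly.

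On its second probe, below the array median throughout, Klf5 differed from 0 h by 0.0647 in WT at 6 h, 0.0275 in KO at 6 h and 0.0261 in KO at 24 h, and by 0.083 from 3 to 6 h in WT, against falls on the bright probe. With the mean of all probes, Nr4a1 in WT at 3 h (0.15) and Nr4a3 in KO at 3 h (0.13) also passed. The second Klf6 probe kept every direction that was called on the first. Dim signals limit Klf15 and the NR4A genes: their whole range over arrays was 8.002 to 8.57, close to the array median of 8.20, so small changes of these transcripts may not be measurable here.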
